A study of Mus musculus with 10 samples.

Results

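Collagen genes were followed in RNA-seq libraries of 10 mouse cutaneous tumors, of which 5 carry an *Ldha*-null label and 5 a wild-type label. The genes were taken by name, as protein-coding entries written Col, a number, a and a number, with a summed count of at least 10 over the 10 tumors. Of 35275 genes in the tables, 44 had such a name, and 43 were kept. *Col9a1*, a cartilage collagen, was left out at a summed count of 3.

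The study asked whether lactate dehydrogenase A, the enzyme that makes lactate from pyruvate, is needed for squamous cell carcinoma to arise from hair follicle stem cells. By its methods, floxed alleles were recombined by *K15CrePR* after mifepristone or by *Lgr5CreER* after tamoxifen, both drivers of these stem cells, and carcinoma was driven genetically, with loss of *p53* (*p53* fl/fl), or by the carcinogen DMBA with the promoter TPA. Which of these models gave the sequenced tumors is not stated. The mice, on a mixed C57BL6/FVB background, were treated as young adults in telogen by the methods, and the time from induction to harvest differed between models, so the age of these 10 mice at harvest is not known here. Some tumors with *Ldha* deletion are described as mosaic. The tumors of the *Ldha*-null group carry the label LDHA-/-, and the other group is labelled wild type; the series names 5 mice of each. Both groups are labelled as squamous carcinoma cells, while the protocol starts from whole fresh tumors with no sorting, so RNA of stroma, vessels and adjoining tissue was measured too. In such bulk libraries fewer cells of a type and less RNA per cell cannot be told apart.

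Collagens are proteins of 3 chains wound into a helix, in which glycine recurs at a fixed spacing. Fibrillar collagens such as types I, III and V form the tensile fibrils of the dermis and are made mostly by fibroblasts. Type IV collagen forms the sheet of basement membranes, type VII anchors the epidermal basement membrane to the dermis, and type XVII spans the membrane of basal keratinocytes in hemidesmosomes. Type VIII forms open networks, type VI forms beaded filaments, and the fibril-associated collagens with interrupted helices (FACIT) sit on the surface of fibrils. By these classes the set held 11 fibrillar, 6 basement membrane, 4 transmembrane, 3 network-forming, 6 beaded filament and 8 FACIT genes, 2 multiplexins, 1 anchoring fibril gene and 2 others.

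Coding exons showed the repeat on which the family rests. In *Col1a1*, coding exon 8 (chr11:94939904-94939957, plus strand, GRCm38) holds 54 bases, or 6 repeats of 9 bases that each begin with a glycine codon. In *Col4a1* and *Col17a1* the exon is shown in which the longest unbroken run of the repeat ends, coding exon 9 of *Col4a1* (chr8:11244486-11244569, minus strand) and coding exon 33 of *Col17a1* (chr19:47657463-47657498, minus strand). Capitals mark glycine codons in the register of that run.
Col1a1: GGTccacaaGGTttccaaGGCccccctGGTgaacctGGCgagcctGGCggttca
Col4a1: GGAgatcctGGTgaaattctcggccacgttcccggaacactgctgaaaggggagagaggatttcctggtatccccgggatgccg
Col17a1: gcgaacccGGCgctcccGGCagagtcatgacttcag
The *Col1a1* exon keeps the register to its end, and the other exons leave it after 2 glycine codons. Since those exons were chosen because the run ends in them, this contrast follows from the choice and does not compare the classes.

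The classes differed in how far this repeat runs. In the fibrillar genes the longest run held 216 to 344 repeats, against 39 to 66 in the basement membrane genes and 40 to 56 in the transmembrane genes. Internal coding exons were a multiple of 9 bases long in 83.9% of 627 fibrillar exons, 70.7% of 150 transmembrane exons and 47.2% of 284 basement membrane exons, against 13.7% of 156638 exons of all other protein-coding genes. Exons of exactly 54 bases made up 48.6% of the fibrillar exons and 4.23% of the basement membrane exons. The 3 network-forming genes had 2 coding exons each, the longest of 1886 to 1916 bases, and a longest run of 60 to 61 repeats. *Col7a1* was the most divided, with 118 coding exons.

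Several collagen genes are neighbours. *Col4a1* (chr8:11198423-11312826, minus strand) and *Col4a2* (chr8:11312805-11449287, plus strand) start head to head and overlap, while *Col4a4* and *Col4a3* start 72 bases apart on chromosome 1 and *Col4a6* and *Col4a5* start 1309 bases apart on chromosome X. *Col3a1* and *Col5a2* follow each other on chromosome 1, *Col6a2* and *Col6a1* on chromosome 10, and *Col6a6*, *Col6a5* and *Col6a4* on chromosome 9. RefSeq promoter windows (GRCm38.p6) of 300 bases, 250 before and 50 after the start, were found for 34 of the 43 genes. The windows of the head-to-head pair and of the epithelial gene *Col17a1* are shown, since their transcripts are compared next. They lie at chr8:11312777-11313076 (minus strand), chr8:11312555-11312854 (plus strand) and chr19:47691993-47692292 (minus strand). Capitals mark the GC box GGGCGG, the CCAAT box and the TATA box TATAAA, each searched on both strands.
Col4a1: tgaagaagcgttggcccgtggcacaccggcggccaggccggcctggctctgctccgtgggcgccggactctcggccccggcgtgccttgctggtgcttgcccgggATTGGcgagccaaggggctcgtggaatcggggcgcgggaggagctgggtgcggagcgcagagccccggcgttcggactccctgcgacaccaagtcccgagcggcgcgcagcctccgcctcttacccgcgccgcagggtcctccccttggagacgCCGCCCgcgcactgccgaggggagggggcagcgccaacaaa
Col4a2: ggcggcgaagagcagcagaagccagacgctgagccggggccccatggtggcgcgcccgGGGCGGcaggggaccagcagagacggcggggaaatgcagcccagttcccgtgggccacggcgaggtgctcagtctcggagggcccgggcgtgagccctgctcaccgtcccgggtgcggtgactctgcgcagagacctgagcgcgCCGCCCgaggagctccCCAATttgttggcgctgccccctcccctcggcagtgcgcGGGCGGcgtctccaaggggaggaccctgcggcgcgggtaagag
Col17a1: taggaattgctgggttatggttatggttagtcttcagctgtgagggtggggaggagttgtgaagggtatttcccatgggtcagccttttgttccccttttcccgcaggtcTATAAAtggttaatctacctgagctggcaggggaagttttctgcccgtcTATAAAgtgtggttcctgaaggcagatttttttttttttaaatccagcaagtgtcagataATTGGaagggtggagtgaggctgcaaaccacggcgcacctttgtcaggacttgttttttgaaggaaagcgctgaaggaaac
The *Col4a1* and *Col4a2* windows share 78 bases and are rich in G and C, at 74.0% and 73.7%, against 46.3% for *Col17a1* and a median of 52.7% over 32851 windows. GGGCGG occurred in 35.7% of all windows and in 23 of 36 collagen windows (63.9%). TATAAA occurred in 13.6% of all windows and in 5 of the 36, with *Col17a1* the only gene that held it at 2 places, and CCAAT in 37.4% of all windows and in 12 of the 36. Such matches describe the letters of the windows only.

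Transcript levels are given as FPKM, fragments scaled by gene length and by library size, as the authors computed them. Total counts ran from 12969508 to 17694201 per tumor. The library labelled *Ldha*-null 1 stood apart, with 12 skeletal muscle genes such as *Ckm* at 13.8% of its counts (95% Wilson interval 13.76 to 13.79) against at most 0.0292% in any other tumor. On all genes, null tumors 1 and 3 together with tumor 5 of the wild-type group lay apart from the other 7 on the first principal component, which held 43.4% of the variance. *Ldha* itself lay between 246 and 1883 FPKM in the null group and between 340 and 2824 FPKM in the wild-type group, so its transcript level did not separate the labels. Genotype differences that turn or shrink without these 3 tumors are given both ways.

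Collagen transcripts took 0.0791% of all counts in *Ldha*-null tumor 1 (95% Wilson interval 0.0778 to 0.0804) and 2.07% in wild-type tumor 4 (2.061 to 2.074). In the other 8 tumors the share lay between 0.716% and 1.91%. These intervals cover counting error only. Mean levels over the 10 tumors were at least 100 FPKM for 8 genes, between 1 and 100 FPKM for 21 and under 1 FPKM for 14. The lowest level of the 10 tumors was that of *Ldha*-null tumor 1 for 28 of the 43 genes, as the map of all 43 genes shows.

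**Figure D1:**
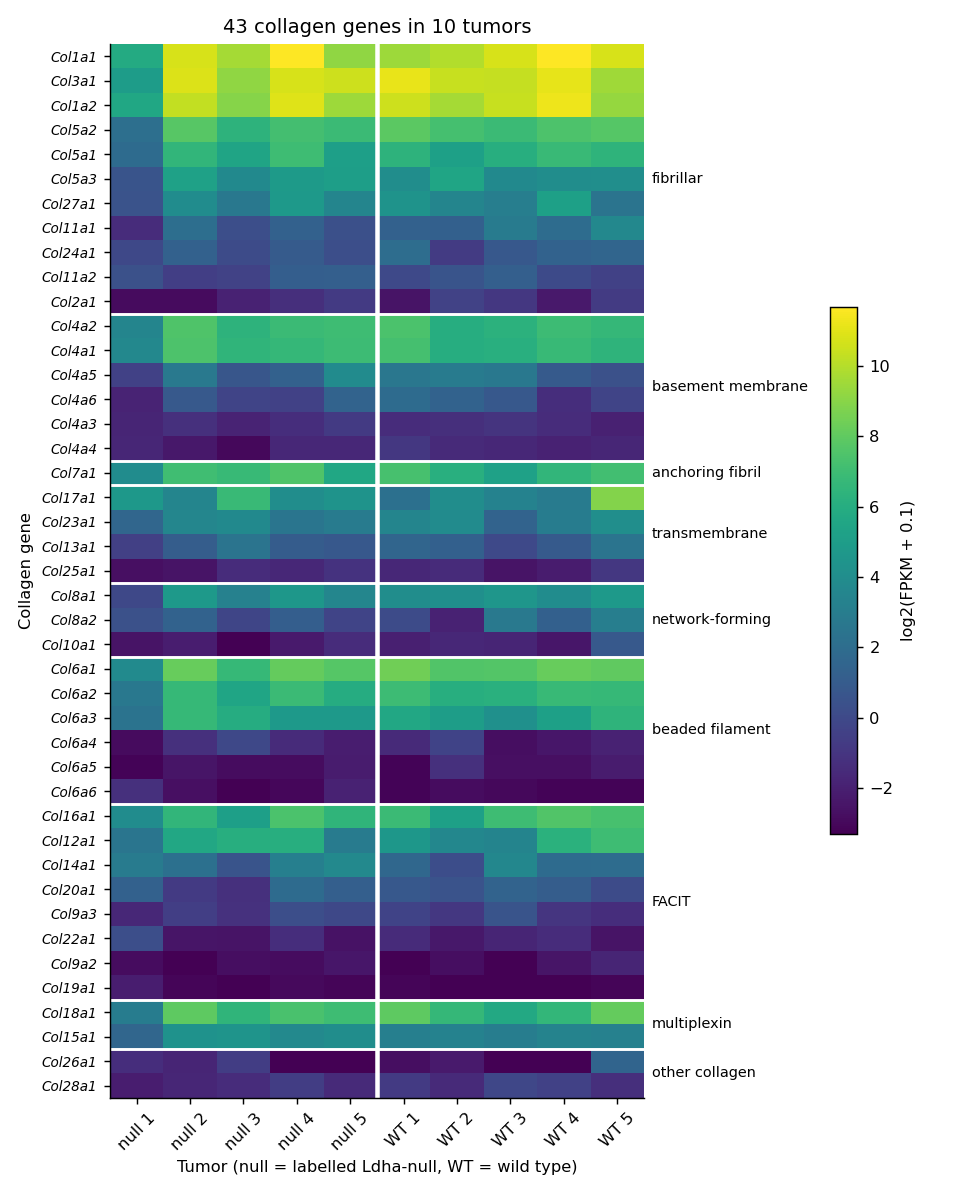
Levels of the 43 collagen genes (rows, by class) in each of the 10 tumors (columns), as log2(FPKM + 0.1) in color. The column of Ldha-null tumor 1 is darkest for 28 of the 43 genes, and Col17a1 is brightest in wild-type tumor 5 at 483 FPKM.

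The fibrillar class was the largest part of the collagen signal, from 51.3% of the summed collagen FPKM in *Ldha*-null tumor 1 and 64.2% in wild-type tumor 5 to 87.6% in wild-type tumor 4. With the gene length listed in the tables these shares were 41.7%, 53.2% and 81.9%. *Col1a1* (chr11:94936224-94953042) and *Col1a2* (chr6:4504814-4541543), which encode the chains of type I collagen, and *Col3a1* (chr1:45311538-45349706), which encodes type III, led it. *Col1a1* measured 57.4, 1724, 816, 3221 and 583 FPKM in null tumors 1 to 5, against 714, 993, 1763, 3258 and 1719 FPKM in the wild-type group in the same numbering. Thus tumor 4 of each group was highest, tumor 1 of the null group lay far below all others, and the remaining ranges overlapped.

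*Col1a2* measured 48.3, 1250, 485, 1972 and 699 FPKM in the null tumors and 1479, 804, 1347, 2505 and 630 FPKM in the wild-type tumors. *Col3a1* measured 31.2, 1885, 586, 1766 and 1490 FPKM in the null tumors and 2332, 1336, 1282, 2259 and 747 FPKM in the wild-type tumors. The type III gene therefore did not follow *Col1a1* tumor by tumor, being the higher of the pair in null tumors 2 and 5 and in tumors 1 and 2 of the wild-type group. Means of the 10 tumors were 1485, 1122 and 1371 FPKM for *Col1a1*, *Col1a2* and *Col3a1*, but 446, 471 and 446 FPKM when the same counts were divided by the gene length listed in the tables, so the order of these genes depends on the length used.

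The fibrillar sum was 3537 ± 1246 FPKM (SEM, n = 5) in *Ldha*-null tumors and 4937 ± 912 FPKM (SEM, n = 5) in wild-type tumors, a log2 ratio of -0.48. The basement membrane sum was 214 ± 57.5 FPKM (SEM, n = 5) against 213 ± 34.6 FPKM (SEM, n = 5), a log2 ratio of 0.012. The network-forming sum was 16.4 ± 5.26 FPKM (SEM, n = 5) against 24.0 ± 3.94 FPKM (SEM, n = 5), a log2 ratio of -0.55. For these 3 classes *Ldha*-null tumor 1 was lowest, at 150, 25.04 and 2.14 FPKM, and the other null tumors overlapped the wild-type range. Without it, the null tumors lay between 2035 and 7296 FPKM for the fibrillar class, where wild-type tumors lay between 3381 and 8378 FPKM. In the 7 tumors the log2 ratios were -0.041 for the fibrillar, 0.42 for the basement membrane and 0.16 for the network-forming class, so the lower network-forming level of the null group turned.

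In the transmembrane class a wild-type tumor held the extreme. Its sum was 28.9, 24.96, 133, 24.1 and 29.9 FPKM in the null tumors and 18.9, 33.8, 13.4, 17.1 and 506 FPKM in the wild-type tumors. The log2 ratio of the means was -1.29, and it became 1.21 without wild-type tumor 5, 0.34 in the 7 tumors and 0.61 as a ratio of medians. The direction of this class between genotypes thus rests on wild-type tumor 5. The class sums were not tested, since they are scores over chosen genes.

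**Figure D2:**
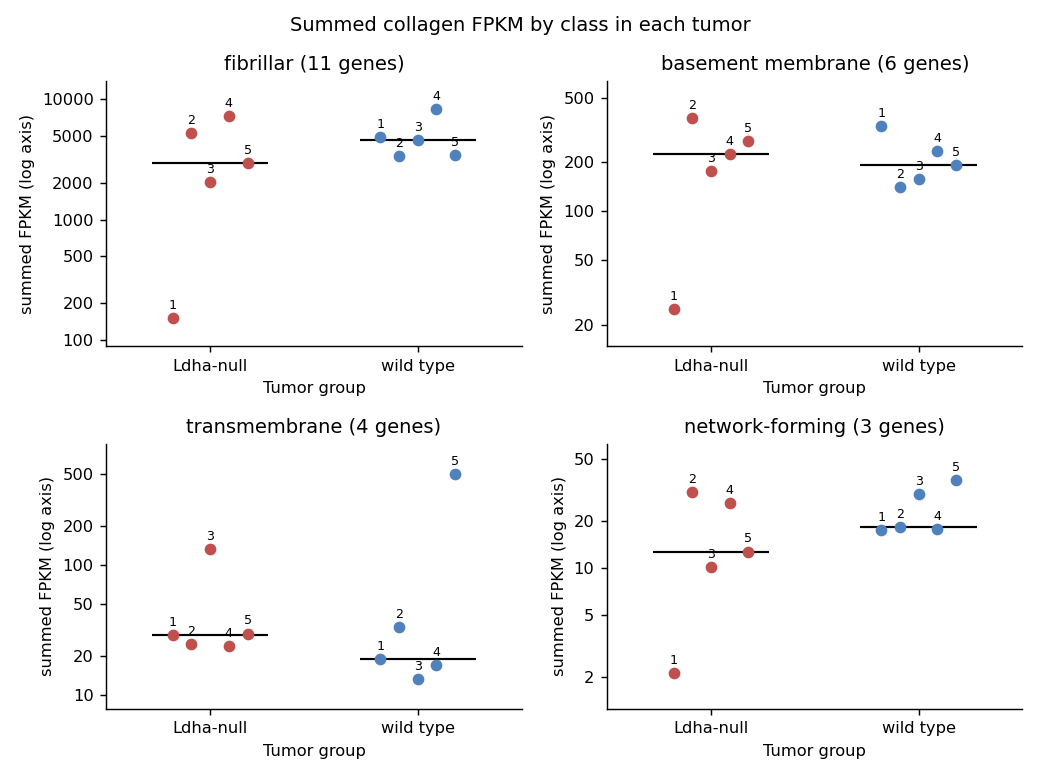
Summed FPKM (log axis) of 4 collagen classes in each tumor, with tumor numbers beside the points and the median of 5 tumors as a line. Ldha-null tumor 1 is lowest in the fibrillar, basement membrane and network-forming classes, and wild-type tumor 5 is highest in the transmembrane class at 506 FPKM.

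Genes of the other classes gave the same picture of wide overlap. The beaded filament sum, led by *Col6a1*, ranged from 26.5 FPKM in *Ldha*-null tumor 1 to 515 FPKM in wild-type tumor 1. The FACIT sum, led by *Col16a1*, ranged from 32.6 FPKM in *Ldha*-null tumor 1 to 293 FPKM in wild-type tumor 5. The multiplexin sum, led by *Col18a1*, whose C-terminal fragment is endostatin, ranged from 10.8 FPKM in *Ldha*-null tumor 1 to 292 FPKM in wild-type tumor 5. The null-tumor means were 292 ± 82.8, 131 ± 36.0 and 143 ± 42.5 FPKM (SEM, n = 5), and the wild-type means were 398 ± 43.9, 186 ± 44.6 and 166 ± 46.2 FPKM (SEM, n = 5). The log2 ratios of these means were -0.45, -0.51 and -0.22, and in the 7 tumors all 3 turned, to 0.075, 0.12 and 0.55.

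No collagen gene passed the test between the genotypes. In edgeR's quasi-likelihood test over 15176 genes, 34 of the 43 collagen genes were tested, 0 had a Benjamini-Hochberg adjusted p under 0.05, and across all genes 0% did. At an unadjusted p under 0.05, 1 collagen gene was lower in *Ldha*-null tumors, where 0.395% of all genes were, and 0 were higher, where 3.56% of all genes were. The groups did not overlap for 0 collagen genes, against 0.185% of all genes. The tests of the remaining 9 genes were not made, because their counts fell under the minimum.

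The tested genes leaned lower in the null group when all 10 tumors were used. The log2 fold change was negative for 22 of the 34 and positive for 12, where 47.2% of all genes were negative, and its median was -0.34 against 0.025 over all genes. Without *Ldha*-null tumor 1 the median over 37 tested collagen genes was -0.13 against -0.015 over all genes. Of the 37, 24 were negative, but the share of all genes that were negative was not counted in that setting. In the 7 tumors the median was 0.034 over 38 collagen genes. Of these, 18 were negative and 20 positive, while 50.3% of all genes were negative.

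**Figure D3:**
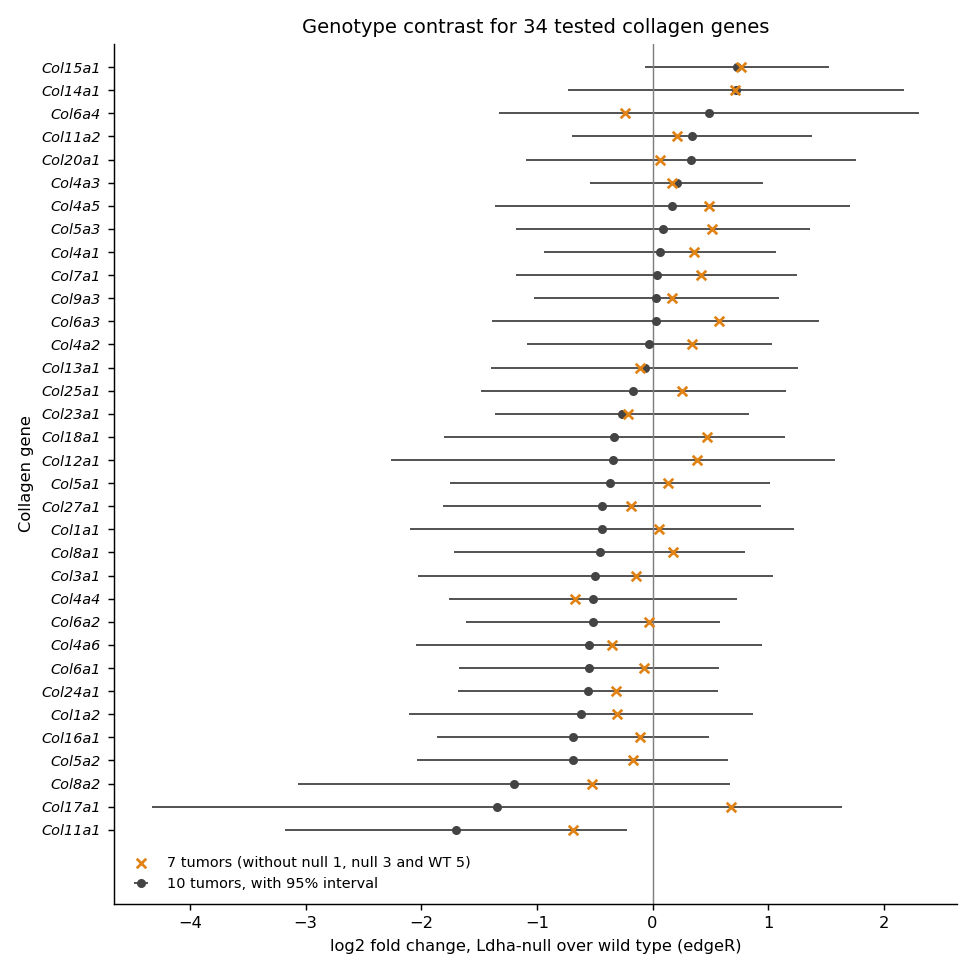
Log2 fold change of the 34 tested collagen genes (rows) between Ldha-null and wild-type tumors, with 95% intervals (dots and lines, 10 tumors) and the values in 7 tumors (crosses). The interval leaves out 0 for Col11a1 alone, and Col17a1 moves from -1.35 to 0.67 when 3 tumors are left out.

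*Col11a1* (chr3:114030540-114220718) encodes a chain of type XI collagen, a minor fibrillar collagen known for nucleating fibrils. It measured 0.27, 4.15, 1.11, 2.44 and 1.14 FPKM in the null tumors and 2.40, 2.36, 7.55, 3.78 and 12.8 FPKM in the wild-type tumors. Wild-type tumors 3 and 5 were highest, and *Ldha*-null tumors 2 and 4 lay within the wild-type range. The log2 fold change was -1.70 (95% interval -3.18 to -0.22), with an edgeR unadjusted p of 0.0278 and an adjusted p of 0.999, and a two-sided exact permutation p of 0.0794. In the 7 tumors it was -0.69 (95% interval -1.94 to 0.56).

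*Col15a1* (chr4:47208161-47313167), a multiplexin of basement membrane zones, had the largest positive value of the tested genes. It measured 2.96, 19.9, 21.6, 13.01 and 16.5 FPKM in the null tumors and 8.67, 9.84, 7.97, 10.4 and 9.64 FPKM in the wild-type tumors. Tumors 2 to 5 of the null group lay above every wild-type tumor, and tumor 1 lay below them all. The log2 fold change was 0.73 (95% interval -0.064 to 1.53, unadjusted edgeR p 0.068), and it was 0.95 without *Ldha*-null tumor 1 (unadjusted edgeR p 0.00365, adjusted p 1) and 0.77 in the 7 tumors (unadjusted edgeR p 0.01, adjusted p 1). In the 7 tumors, *Col15a1* was the 1 collagen gene at an unadjusted p under 0.05, where 1.1% of all genes were higher at that level.

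The precision of these comparisons was low. The SD of log2 CPM over the 10 tumors had a median of 1.11 over the tested collagen genes, against 0.636 over all tested genes, and it exceeded that median for 32 of the 34. The 95% interval lay within a 2-fold change either way for 1 gene and within a 4-fold change either way for 23. For the other 33 genes a 2-fold change in at least 1 direction lay within the interval.

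Basement membrane collagens were led by the pair that starts head to head. *Col4a1* measured 12.7, 178, 89.8, 102 and 123 FPKM in the null tumors and 155, 65.2, 71.4, 109 and 87.2 FPKM in the wild-type tumors. *Col4a2* measured 11.1, 187, 83.5, 120 and 131 FPKM in the null tumors and 169, 66.0, 78.2, 125 and 103 FPKM in the wild-type tumors. By the authors' FPKM, *Col4a1* was the lower of the pair in all tumors but *Ldha*-null tumors 1 and 3. It stood at 0.85 to 1.14 times *Col4a2*, the narrowest range of the 8 chain ratios examined, 1.34-fold from lowest to highest. On the listed gene length the median ratio was 1.21 instead of 0.93, so the order of this pair depends on the length used.

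Over the 7 tumors the log2 CPM of *Col4a1* and *Col4a2* correlated with Pearson r = 0.990 (exact permutation p 0.000198, the smallest that 7 tumors allow, adjusted over 8 pairs 0.00159) and Spearman rho = 1.0 (exact permutation p 0.000397, adjusted 0.00317). Without the 2 tumors farthest from the median of *Col4a1*, r was 0.988 over 5 tumors. *Pecam1*, a marker of the endothelial cells that lay down type IV collagen, correlated with *Col4a1* at r = 0.27 and rho = 0.32 over the 7 tumors (exact permutation p 0.579 and 0.498, adjusted 0.579 and 0.569). Levels of both type IV genes moved together from tumor to tumor, and no relation to this endothelial marker was detected.

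The other type IV chains were scarce. *Col4a5*, whose product pairs with that of *Col4a6* in epidermal basement membrane, ranged from 0.65 FPKM in *Ldha*-null tumor 1 to 14.9 FPKM in *Ldha*-null tumor 5. *Col4a6* ranged from 0.18 FPKM in *Ldha*-null tumor 1 to 3.66 FPKM in wild-type tumor 1. *Col4a3* and *Col4a4*, chains known from the glomerulus, stayed at or under 0.48 FPKM in every tumor. The ratio of *Col4a5* to *Col4a6*, which also start head to head, ran from 1.65 to 6.34, wider than that of the first pair.

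Among the other chain pairs, *Col6a1* and *Col6a2*, which join in type VI collagen, kept a ratio of 2.27 to 3.30. *Col6a1* measured 14.5, 289, 105, 274 and 207 FPKM in the null tumors and 342, 194, 204, 290 and 253 FPKM in the wild-type tumors. *Col6a3*, the largest chain of the same protein, lay between 0.088 and 0.59 times *Col6a1*, so this ratio varied more from tumor to tumor than that of *Col6a1* to *Col6a2*. Over the 7 tumors *Col6a1* and *Col6a2* had r = 0.956 and rho = 0.893 (exact permutation p 0.00357 and 0.0123, adjusted 0.0143 and 0.0492), and without the 2 farthest tumors r = 0.91 (adjusted exact permutation p 0.2 over 5 tumors).

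The chains of type I collagen were less tightly matched. The ratio of *Col1a1* to *Col1a2* was 1.19, 1.38, 1.68, 1.63 and 0.83 in the null tumors and 0.48, 1.23, 1.31, 1.30 and 2.73 in the wild-type tumors. Wild-type tumors 1 and 5 held the extremes, 5.65-fold apart. The protein's usual makeup is 2 chains of *Col1a1* to 1 of *Col1a2*, a count of protein chains that transcript ratios do not measure. On the listed gene length the median ratio was 0.933 instead of 1.305, so the order of this pair also depends on the length used. Over the 7 tumors r was 0.834 and rho 0.786 (exact permutation p 0.0185 and 0.048, adjusted 0.0492 and 0.128), and without the 2 farthest r was 0.982. The ratio of *Col3a1* to *Col1a1* ran from 0.43 in wild-type tumor 5 to 3.27 in wild-type tumor 1.

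The type V chains had a lower correlation over the 7 tumors than the type I chains, but a narrower range of ratios over the 10. *Col5a1* lay between 0.24 and 0.92 times *Col5a2*, its partner in the type V collagen that limits fibril width, with r = 0.54 and rho = 0.43 over the 7 tumors (exact permutation p 0.212 and 0.354, adjusted 0.34 and 0.471). *Col8a1* lay between 0.68 and 102 times *Col8a2*, its partner in the endothelial and corneal network. The highest of these ratios, in wild-type tumor 2, came from a *Col8a2* level of 0.17 FPKM. Between genotypes the log2 ratios differed in 0 of the 8 pairs (two-sided exact permutation test over all assignments of 5 tumors, adjusted p 0.841 for each), with mean differences from -0.59 for *Col8a1* over *Col8a2* to 0.67 for *Col6a3* over *Col6a1*.

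**Figure D4:**
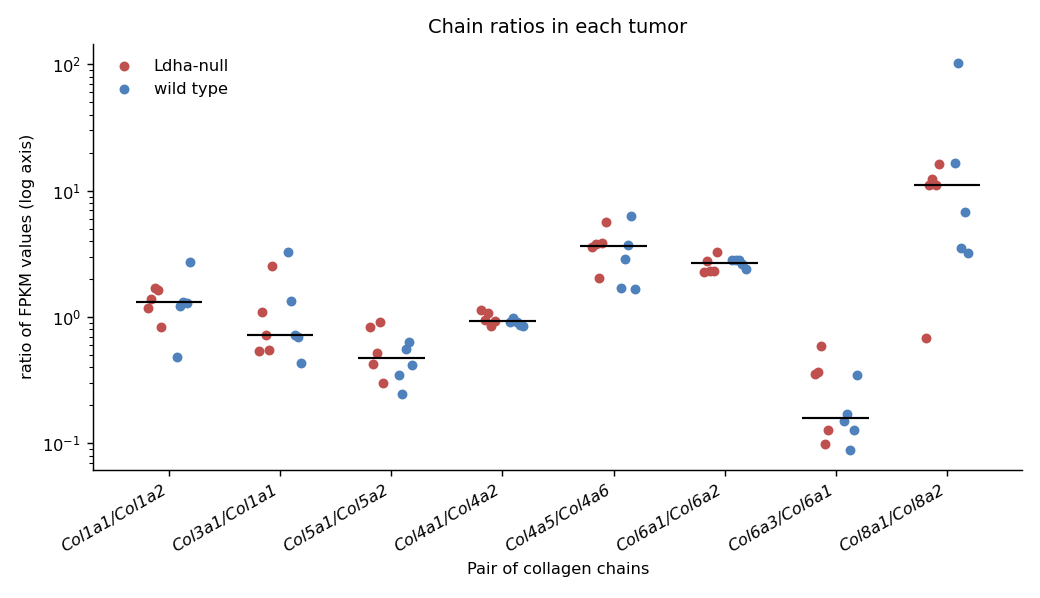
Ratio of FPKM values (log axis) of 8 pairs of collagen chains in each tumor, colored by genotype, with the median of 10 tumors as a line. The Col4a1 to Col4a2 ratio spans 1.34-fold, and the Col8a1 to Col8a2 ratio runs from 0.68 to 102.

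*Col17a1* (chr19:47646344-47692094) was the most variable of the tested collagen genes, with an SD of 2.11 on log2 CPM. It measured 25.2, 11.3, 114, 16.3 and 20.3 FPKM in the null tumors and 4.55, 16.4, 9.75, 7.44 and 483 FPKM in the wild-type tumors. Wild-type tumor 5 and *Ldha*-null tumor 3 were highest and wild-type tumor 1 was lowest. The log2 fold change was -1.35 (95% interval -4.33 to 1.64, edgeR adjusted p 0.999), against 2.33 without wild-type tumor 5 (95% interval 0.55 to 4.11, unadjusted edgeR p 0.0155, adjusted p 0.706) and 0.67 in the 7 tumors.

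*Krt14*, which marks the basal layer of the epidermis, reached 28399 FPKM in null tumor 3 and 28691 FPKM in tumor 5 of the wild-type group, and lay between 138 and 4195 FPKM elsewhere. The whole keratinocyte marker list of 9 genes summed to 853 to 33463 FPKM in the null group and to 264 to 36499 FPKM in the wild-type group, with 0 of the 9 at 0 in every tumor. Over the 7 tumors *Col17a1* and *Krt14* had r = 0.783 and rho = 0.75 (exact permutation p 0.0343 and 0.0663, adjusted 0.0687 and 0.133). Without the 2 tumors farthest from the median of *Krt14*, r was 0.38. With 5 tumors over a narrower *Krt14* range, this value cannot show whether the relation rests on those 2. Over all 10 tumors, which include those that lie apart, r was 0.923 and rho 0.903. At nearly the same *Krt14* level, *Col17a1* was 0.400% of *Krt14* in *Ldha*-null tumor 3 and 1.68% in wild-type tumor 5, each in a single tumor.

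*Col7a1* (chr9:108953586-108984875), which keratinocytes and fibroblasts both make, did not follow *Krt14*. It measured 15.7, 132, 111, 188 and 49.3 FPKM in the null tumors and 156, 69.0, 37.8, 91.7 and 140 FPKM in the wild-type tumors, with means of 99.3 ± 30.5 and 99.0 ± 22.0 FPKM (SEM, n = 5). Its highest level, in *Ldha*-null tumor 4, came with *Krt14* at 550 FPKM, and its level in wild-type tumor 1 came with the lowest *Krt14*. Over the 7 tumors r was -0.36 and rho -0.43 (exact permutation p 0.417 and 0.354, adjusted 0.512 and 0.471). Accordingly *Col17a1* ranged from 0.029 times *Col7a1* in wild-type tumor 1 to 3.45 times in wild-type tumor 5.

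**Figure D5:**
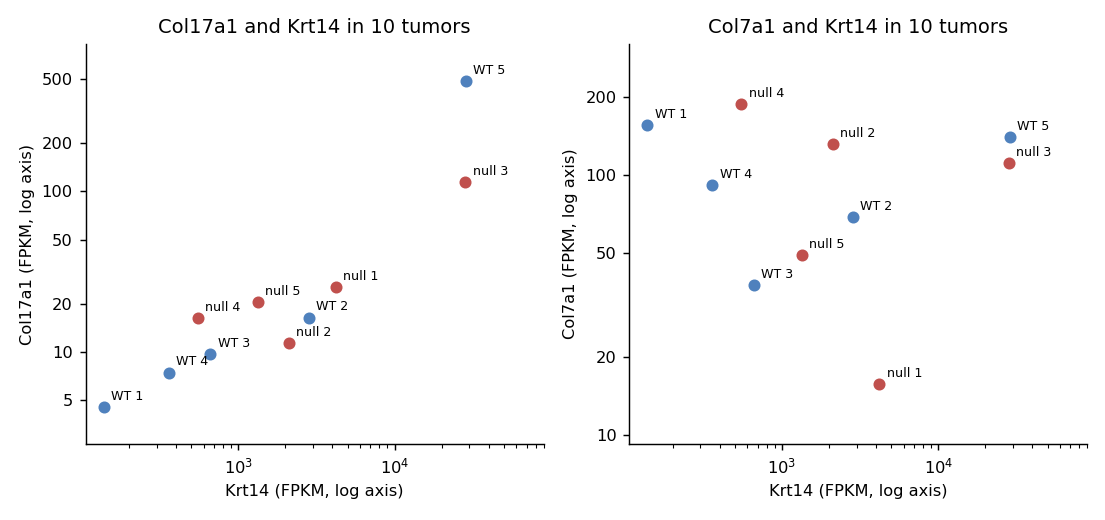
Levels of Col17a1 (left) and Col7a1 (right) against Krt14 in 10 tumors, both axes logarithmic and in FPKM, with each tumor named. Col17a1 is highest, at 483 and 114 FPKM, in the pair of tumors with Krt14 at 28691 and 28399 FPKM, and Col7a1 is highest in Ldha-null tumor 4 at 188 FPKM.

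The other transmembrane genes were lower. *Col23a1* ranged from 2.67 FPKM in wild-type tumor 3 to 17.1 FPKM in wild-type tumor 5, *Col13a1* from 0.62 to 5.37 FPKM and *Col25a1* from 0.06 to 0.45 FPKM. None of these passed the test.

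Some scarce collagens were prominent in 1 tumor. *Col22a1*, a collagen of myotendinous junctions, had 54 counts in *Ldha*-null tumor 1 and 3 to 14 in each other tumor. *Col6a6* had 37 counts in *Ldha*-null tumor 1, 19 in *Ldha*-null tumor 5 and at most 6 elsewhere, and *Col19a1* had 10 of its 16 counts in *Ldha*-null tumor 1. That tumor is the one with skeletal muscle genes at 13.8% of counts, and their part in these 3 values was not tested.

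In wild-type tumor 5, *Col10a1*, the collagen of hypertrophic cartilage, had 82 counts (1.75 FPKM) against at most 14 in each other tumor. *Col26a1* had 49 counts there (2.76 FPKM) against at most 10 elsewhere and 0 in 4 tumors, and a count of 0 allows up to 0.196 FPKM there at 3 counts. *Col12a1*, a FACIT of dense connective tissue, was also highest there, at 130 FPKM against 5.54 to 75.05 FPKM elsewhere. The 7 chondrocyte markers summed to 25.9 FPKM in wild-type tumor 5 and to 39.3 to 53.9 FPKM in the other wild-type tumors, but *Sox9*, which hair follicle cells also express, gave 22.1 FPKM of the former. In wild-type tumor 5 *Acan* stood at 2.39 FPKM, *Comp* at 1.05 FPKM and *Matn1* at 0.033 FPKM, all within the range of the other wild-type tumors. *Matn3* stood there at 0.155 FPKM, the highest of the 10 tumors, and *Sox5* at 0.211 FPKM, the lowest of the 10. *Hapln1* was listed at 0. The part of cartilage cells in the *Col10a1* level was not tested. *Col2a1*, the main cartilage collagen, stayed at or under 0.68 FPKM in every tumor.

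Genes that modify, fold, process, cross-link or bind collagen were read from the same fit. None of the 10 hydroxylases, 10 folding and secretion genes, 7 tested processing genes, 6 cross-linking genes, 7 tested proteoglycans and 8 receptors had an adjusted p under 0.05 (edgeR). At an unadjusted p under 0.05 stood *Colgalt1*, which adds galactose to collagen hydroxylysine, with a log2 fold change of 0.82, and *Adamts3*, which removes the N-terminal propeptide, with -1.54. Over all genes 3.56% were higher and 0.395% lower at that level, so 2 of the 48 tested partner genes is close to the background. The median log2 fold change was -0.30 for the hydroxylases, 0.047 for folding and secretion, -0.65 for processing, -0.66 for cross-linking, -0.31 for proteoglycans and -0.099 for receptors. In the 7 tumors these medians became -0.082, 0.041, -0.32, -0.38, -0.25 and 0.14.

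Sums of most of these lists were lowest in *Ldha*-null tumor 1. The summed FPKM of the folding and secretion genes was 292 there and 1347 to 3567 in the other null tumors. It was 2102 to 3266 in the wild-type tumors. *Sparc* alone gave 194 of the 292 FPKM, and 2873 of 3567 FPKM in *Ldha*-null tumor 4. The hydroxylase, processing, cross-linking and receptor sums were also lowest in *Ldha*-null tumor 1. The proteoglycan sum was not, at 530 FPKM against 378 in *Ldha*-null tumor 3 and 520 in wild-type tumor 5. *Serpinh1*, the collagen chaperone HSP47, ranged from 20.1 to 374 FPKM, and over the 7 tumors it correlated with *Col1a1* at r = 0.35 and rho = 0.21 (exact permutation p 0.448 and 0.662, adjusted 0.512 and 0.662). *P4ha3*, a chain of prolyl 4-hydroxylase, stood at 4.70 ± 1.91 FPKM in the null tumors and 11.1 ± 2.77 FPKM in the wild-type tumors (SEM, n = 5; unadjusted edgeR p 0.085). *Pcolce*, the enhancer of procollagen C-proteinase, stood at 311 ± 116 FPKM against 584 ± 126 FPKM (SEM, n = 5; unadjusted edgeR p 0.154).

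Markers of mesenchymal cells are set beside the fibrillar class. The 8 mesenchymal markers summed to 282 FPKM in *Ldha*-null tumor 1, 1601 in *Ldha*-null tumor 3 and 2700 in wild-type tumor 5, and to 6218 to 11533 FPKM in the other 7 tumors, with 0 of 8 at 0 in every tumor. Fibrillar collagen summed to 150, 2035 and 3430 FPKM in these 3 tumors and to 2974 to 8378 FPKM in the other 7. Wild-type tumor 5 was thus below the 7 by its marker sum and within their range by its fibrillar sum. Its single markers were divided. *Vim*, *Pdgfra*, *Twist1*, *Prrx1* and *S100a4* lay below the 7. *Pdgfrb*, *Thy1* and *Fap*, at 15.3, 35.0 and 1.39 FPKM, lay within their range. *Vim* and *S100a4* made up most of the marker sum, and *Fap* was highest of the null group in *Ldha*-null tumor 1, at 2.85 FPKM. The part of mesenchymal cell content in the collagen levels was not tested.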

How the data were processed

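From 10 whole tumors the authors made oligo(dT)-enriched mRNA libraries, filtered reads (CASAVA 1.8 base calls by the submitters' processing notes), aligned them to mm10 with TopHat2 and counted fragments per gene; counts and FPKM were deposited per tumor. The deposited counts are whole numbers that were tested as they stand. The FPKM values were computed by the authors, and dividing counts by them gave a gene length of 0.30 to 1.0 times the listed length (median 0.53, under 90% for 40 of 43 genes), so levels of different genes depend on the length. The protocol does not state strand, so overlapping genes cannot be separated.

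Genotypes were compared with edgeR 4.0.16 under R 4.3.3 (filterByExpr with a minimum count of 10 and minimum total of 15, TMM, quasi-likelihood F-test, no covariate, Benjamini-Hochberg adjustment over all genes, threshold 0.05). The biological coefficient of variation was 63.4%. Single genes and ratios used two-sided exact permutation tests over all assignments of 5 tumors of 10 (smallest p 0.00794), and correlations used log2 CPM with a prior count of 2. The tumors that lie apart were left out of correlations, which leaves 7. P-values set a difference or a correlation against the variation between tumors. The alternatives were DESeq2 1.42.0, other scalings and filters, limma 3.58.1 on voom values or FPKM, the tumor number as a block, and leaving out tumors. Per-gene values are named by class leader, by unadjusted p, by a level in 1 tumor over 10 times the median, or as markers; *Col15a1*, *Col12a1*, *Col19a1* and *Col22a1*, as well as other members given by range, were named after their values were seen. Members, lists and alternatives were chosen with earlier results of these data known. Exons came from GENCODE M21, in which all 43 genes were found, 40 at the coordinates listed in the tables. Sequences of proteins were not used here. Genes of the *Ldh* family other than *Ldha* were not analysed here. An allele of the genetic tumor model is not reported here.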

Additional observations from a re-analysis of the deposited data

Results flagged for a closer look

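In groups of 5 tumors, a tumor was set apart where its gap to the nearest other, divided by the range of the group, passed 0.71 (Dixon's test). Of 68 groups examined for the 34 tested genes, 6 held such a tumor. Chance gives about 1 in 20 for independent groups, but these groups share the same tumors, so that rate is no reference for the count. In *Ldha*-null tumor 1, *Col3a1* stood at 31.2 FPKM where the other null tumors held 586 to 1885, *Col5a2* at 4.31 against 81.9 to 216, *Col18a1* at 7.85 against 90.7 to 252.2, *Col4a1* at 12.7 against 89.8 to 178 and *Col4a2* at 11.1 against 83.5 to 187. In wild-type tumor 5, *Col17a1* stood at 483 FPKM where the other wild-type tumors held 4.55 to 16.4. The 5 low values all belong to the tumor in which skeletal muscle genes took 13.8% of counts, and their part in these values was not tested.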

How the results depend on the processing

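Over the 20 alternatives edgeR, limma and DESeq2 called 0 collagen genes at an adjusted p under 0.05, and DESeq2 called 1 gene over the whole table, *G0s2*. At an unadjusted p under 0.05 stood 601 genes in edgeR, 489 in DESeq2, 321 with limma-voom and sample quality weights and 120 with the tumor number as a replicate block, and 1, 1, 1 and 0 collagen genes. Same-numbered tumors had correlations of -0.045, 0.064, -0.27, 0.55 and -0.51, and number 4 alone correlated best with its own number. These values cannot decide whether the numbers pair the tumors, since the tumors that lie apart are among them. The block called 0 collagen genes, as the main test did. Of 34 tested genes, 20 changed sign in at least 1 alternative and 14 in none, with 0 past the threshold. The log2 ratio of the transmembrane sums was -1.29, 0.61 as a ratio of medians, and -2.13 to 1.21 when each tumor was left out in turn, the highest value coming without wild-type tumor 5. In all 10 tumors r was 0.901 for *Col5a1* and *Col5a2*, 0.923 for *Krt14* and *Col17a1*, 0.0063 for *Krt14* and *Col7a1*, and 0.725 for *Serpinh1* and *Col1a1*, against 0.54, 0.78, -0.36 and 0.35 in the 7; for *Col6a1* and *Col6a2* r was 0.912 without the 2 farthest tumors. Depth left 9 genes too low to test, and tested genes such as *Col4a3*, at a summed count of 133, rest on few counts per tumor. The cause of these changes was not tested.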
